A study of Mus musculus with 2 samples.

Results

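A set of 9 transcription factors that build and pattern the axial mesoderm, the midline tissue of node, notochord and prechordal plate, was followed in RNA from the mouse left–right organizer (LRO). They were chosen by name, as the T-box gene T, the forkhead genes Foxa1 and Foxa2, the homeobox genes Mnx1, Gsc and Lhx1, and the Sox genes Sox9, Sox5 and Sox6. All 9 had reads, among 17586 genes measured. Cells came from embryos with 0 to 4 somites that carried the FOXJ1-EGFP transgene on a C57BL/6 x 129 SvEv background, so both groups shared the transgene and the strain. The EGFP reporter follows the FOXJ1 promoter, which is active in cells that build motile cilia. GFP positive cells formed the LRO group and GFP negative cells from a separate pool of embryos formed the non-LRO group. Each group gave 1 library from pooled embryos, so there was no replicate error and no test of the 2 conditions. The study reports micro-dissection before the sort, and far fewer cells and far less RNA for the LRO pool than for the non-LRO pool. The part of this difference in low or absent reads of the LRO library was not tested. The deposited column for GFP negative cells is named as such. The other one bears no name of a sample, and was taken as the LRO library because the table holds no further library and the study gives identical reads for its GFP positive cells.

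The node and notochord lie along the midline beneath the neural plate and send signals to the tissues around them. In the mouse, T is required for the notochord and the posterior mesoderm, and Foxa2 is required for the node itself. Lhx1 and Gsc mark the anterior end of the same axis, where the prechordal plate forms beneath the future head. Sox9 with Sox5 and Sox6 builds and maintains the matrix sheath of the notochord, and the same trio acts later in cartilage.

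Values are given as reads summed over a gene's transcripts, and as RPKM, in which they are divided by the length of the transcript and by the library total, so that levels of different genes can be set side by side. For lists of genes the sum of RPM is given, in which reads are divided by the library total alone. The LRO to non-LRO ratio was taken after scaling reads to the total of each library, 30277869 (LRO) and 24407300 (non-LRO). Its 95% interval is an exact conditional binomial one and covers the counting error of reads only, since amplified reads are not independent molecules. Genes with an interval wholly above 2 are called higher here, those with one wholly under 0.5 lower, and the rest neither. Among all genes 3.97% were called higher and 12.3% lower by this rule. With TMM factors, a scaling that sets most genes to equal levels, these shares were 6.45% and 7.89%. Among the 9894 genes with at least 50 reads in each library the median log2 ratio was -0.31, or 0.04 with TMM factors, and ratios below are as scaled to the library totals. In sorted pools, fewer cells of a type and less RNA per cell cannot be told apart.

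The sorted library matched its label by markers of the node. Noto, which is made in the node and encodes a homeobox factor, had 307 LRO and 0 non-LRO reads, and Shh, the signal of node and notochord, had 731 and 9. Foxj1, whose promoter drives the reporter, had 194 and 4 reads, which is a check of the sort. Of 11 node and notochord genes, these 3 among them, 9 were higher and 0 lower. Markers of other tissues were higher in the LRO library as well. The summed level of 12 neural crest markers was 135 RPM in the LRO library against 62.6 in the non-LRO library, with 6 of 12 higher, 0 lower and no marker at 0 reads. The summed level of 9 heart markers was 438 and 107 RPM, with 5 of 9 higher, 0 lower and no marker at 0 reads.

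Foxa2 and Sox6 have several transcription starts, which bear on results given below. RefSeq windows of 250 bases before and 50 bases after each transcription start matched 8 of the 9 genes, all but Sox9, with 15 windows in all. They are from the GRCm38.p6 build, and the spacing of the starts of Foxa2 and of Sox6 was the same there as in the deposited table. The windows of T, Foxa1 and Lhx1, called genes with 1 start, are shown with that of the main Foxa2 transcript and with 2 of Sox6 whose transcripts differed in call. Each is written 5′ to 3′ on the strand of the gene, and capitals mark a match to the forkhead core TGTTTAC on either strand.
T, chr17:8434173-8434472, plus strand: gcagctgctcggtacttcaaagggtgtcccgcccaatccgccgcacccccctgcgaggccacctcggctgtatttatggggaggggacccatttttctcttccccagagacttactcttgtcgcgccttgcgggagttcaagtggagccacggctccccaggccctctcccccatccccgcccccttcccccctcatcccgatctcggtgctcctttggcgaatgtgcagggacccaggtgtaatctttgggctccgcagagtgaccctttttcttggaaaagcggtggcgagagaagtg
Foxa1, chr12:57546062-57546361, minus strand: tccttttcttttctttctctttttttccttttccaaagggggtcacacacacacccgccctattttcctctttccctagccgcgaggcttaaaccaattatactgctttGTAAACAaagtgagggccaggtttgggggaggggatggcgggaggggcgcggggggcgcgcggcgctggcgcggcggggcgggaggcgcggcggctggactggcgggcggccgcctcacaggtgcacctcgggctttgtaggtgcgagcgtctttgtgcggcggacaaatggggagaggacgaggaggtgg
Foxa2, main start, chr2:148045899-148046198, minus strand: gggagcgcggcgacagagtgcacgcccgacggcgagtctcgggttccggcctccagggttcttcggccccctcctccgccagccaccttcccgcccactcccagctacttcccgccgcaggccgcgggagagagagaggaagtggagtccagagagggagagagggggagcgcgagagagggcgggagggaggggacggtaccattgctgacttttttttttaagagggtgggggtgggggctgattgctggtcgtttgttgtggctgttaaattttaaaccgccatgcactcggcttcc
Lhx1, chr11:84525485-84525784, minus strand: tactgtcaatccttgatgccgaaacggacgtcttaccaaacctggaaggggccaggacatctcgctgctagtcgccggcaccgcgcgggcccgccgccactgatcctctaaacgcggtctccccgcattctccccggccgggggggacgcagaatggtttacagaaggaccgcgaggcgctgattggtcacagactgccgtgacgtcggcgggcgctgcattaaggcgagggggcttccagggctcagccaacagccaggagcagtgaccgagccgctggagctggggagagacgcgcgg
Sox6, most upstream start, chr7:116038695-116038994, minus strand: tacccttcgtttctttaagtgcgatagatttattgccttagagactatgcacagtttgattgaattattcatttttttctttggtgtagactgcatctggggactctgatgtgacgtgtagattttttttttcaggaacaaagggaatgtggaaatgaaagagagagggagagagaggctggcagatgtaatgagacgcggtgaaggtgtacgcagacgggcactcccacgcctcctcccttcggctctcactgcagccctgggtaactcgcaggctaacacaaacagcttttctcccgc
Sox6, next start, chr7:116030998-116031297, minus strand: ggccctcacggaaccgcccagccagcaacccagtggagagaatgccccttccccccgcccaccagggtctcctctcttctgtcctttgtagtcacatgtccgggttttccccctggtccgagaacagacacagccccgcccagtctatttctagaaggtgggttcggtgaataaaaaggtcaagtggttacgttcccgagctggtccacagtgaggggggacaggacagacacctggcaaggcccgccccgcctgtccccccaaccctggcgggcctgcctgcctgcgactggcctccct

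Of the windows shown, the Foxa1 window alone held the forkhead core, on the opposite strand at position -141 from the start. The core was found in 3.65% of 32851 windows of the same length. The windows were also searched on both strands for the forkhead variant TGTTTGC (5.07% of all windows), the T-box site TCACACC (3.98%), the SOX core ACAAT (31.0%), its longer form AACAATG (3.78%), which contains the shorter one, and the homeobox core TAATTA (5.29%). None of these was in the 6 windows shown. Of the other windows, that of Gsc held the SOX core, and that of Sox5 the SOX core and the forkhead variant. The Sox5 window (143947057 to 143947356) lies inside the gene and was not matched to the start of the measured Sox5 transcripts. Windows of the 4 further Sox6 starts held the SOX core (3 starts, 1 of them with the longer form) or the T-box site (1 start). A match is only a run of letters, and no binding was measured. Windows of T, Foxa1, Foxa2 (main start) and Lhx1 held 61.7%, 62.3%, 64.0% and 65.7% G and C, above the median of 52.7% for all windows.

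Of the 9 regulators, T, Foxa1, Foxa2, Sox9 and Sox5 were higher in the LRO library, and Lhx1 was lower. This is 5 of 9 higher beside 3.97% of all genes, and 1 of 9 lower beside 12.3%. Sox6, Mnx1 and Gsc were called neither. The median log2 ratio of the 9 was 1.76, beside -0.42 for all genes. In the LRO library 7676 reads fell on the 9 genes, of which T and Sox9 held 81.9%. In the non-LRO library they had 1632 reads, and T, Lhx1 and Sox6 held 84.0%.

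**Figure D1:**
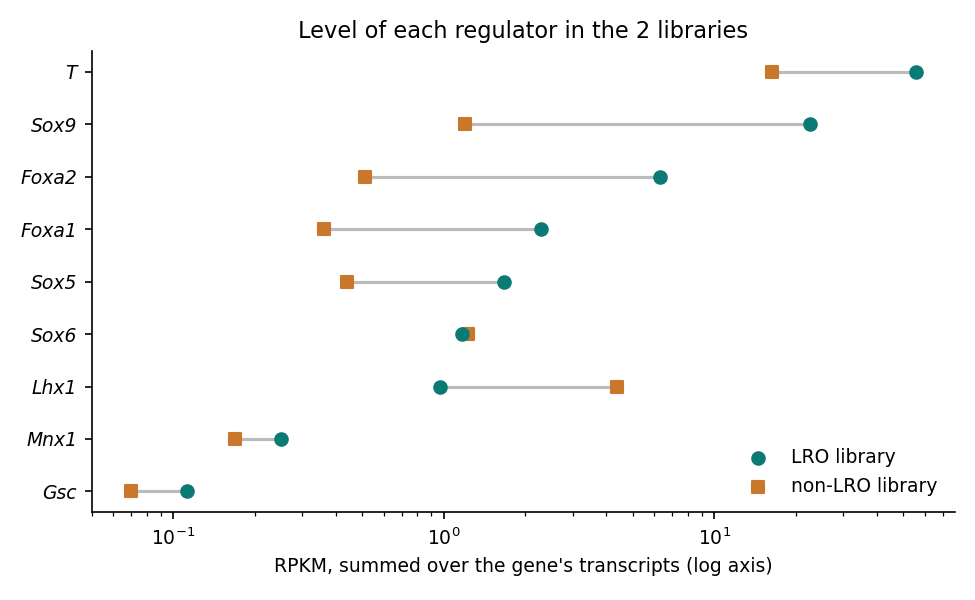
Level of each regulator in RPKM (log axis), summed over its transcripts, with circles for the LRO library and squares for the non-LRO library and 1 library each. T was the highest in both libraries, Sox9 moved from 1.20 to 22.7 RPKM, and Lhx1 was the gene that was clearly lower in the LRO library, at 0.973 against 4.37 RPKM.

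T, which encodes the T-box factor Brachyury and lies on chromosome 17 (8434423 to 8442496 in GRCm38), had the most reads of the 9. It had 3441 reads in the LRO library against 819 in the non-LRO library. The levels were 55.5 and 16.4 RPKM, and the ratio was 3.39 (95% interval 3.14 to 3.66). Its level was substantial in both pools. In the LRO library T ranked 1 by RPKM among the 78 measured genes of the T-box, Fox, Sox and LIM homeobox families, and in the non-LRO library it ranked 3. Cells of the primitive streak and neuromesodermal progenitors also express T, so a list of genes of these cells, with some of presomitic mesoderm, was counted beside it.

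Of the 15 genes of this list 0 were higher and 8 lower. Their summed level was 137 RPM in the LRO library against 295 in the non-LRO library, with no gene at 0 reads. With TMM factors 2 were higher and 5 lower. Tbx6, Msgn1, Dll1 and Hes7 are among the 15, and the study uses them as markers of presomitic mesoderm. Of these, Tbx6 and Msgn1 were lower, and Dll1 and Hes7 were called neither. Nkx1-2 had 899 against 1734 reads and was lower, but was called neither with TMM factors. Cdx4, a posterior homeobox gene, had 106 reads against 957 and was 11.2-fold lower. Wnt8a, a Wnt ligand of the streak, had 3 against 91 reads. Tbx6, the T-box factor of the presomitic mesoderm, was 4.47-fold lower (3.70 to 5.43). The streak T-box factor Eomes had 2 against 43 reads. Other genes of the list had ratios above 1. Mixl1, a homeobox gene of the streak, had 330 against 125 reads and a ratio of 2.13 (1.73 to 2.64), and Sp5, a target of Wnt signals, had 346 against 121 and a ratio of 2.31 (1.87 to 2.86). Both were called neither, and higher with TMM factors. Wnt3a, a Wnt ligand, had 142 against 62 reads and was called neither under both scalings. The part of such cells in the level of T was not tested.

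Foxa1 and Foxa2 encode closely related forkhead factors that open chromatin in endoderm and midline cells. Foxa2, on chromosome 2 (148042877 to 148046969), had 395 reads in the LRO library against 26 in the non-LRO library. Its levels were 6.29 and 0.514 RPKM and its ratio was 12.2 (8.23 to 19.0). Foxa1, on chromosome 12 (57540628 to 57546916), had 222 and 28 reads, or 2.30 and 0.360 RPKM, a ratio of 6.39 (4.30 to 9.84). The ratio of Foxa2 was 1.91 times that of Foxa1 (1.05 to 3.49), beyond counting error by a small margin. Foxa3, the third gene of the group, which is best known from gut and liver, had 42 and 4 reads and a ratio of 8.46 (3.07 to 32.5). By level, Foxa2 was 2.74 times Foxa1 in the LRO library against 1.43 times in the non-LRO library, in RPKM.

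Foxa genes are shared with the endoderm and the floor plate, so markers of these were counted beside them. Of 8 definitive endoderm genes 2 were higher, Foxa3 and the gut peptide gene Pyy, and 2 were lower, the endoderm regulators Sox17 and Gata4. Sox17 had 18 reads against 84 and was 5.79-fold lower (3.45 to 10.2). The summed level of the 8 was 46.2 RPM in the LRO library against 75.4 in the non-LRO library, with no gene at 0 reads. Gata6 had the most LRO reads of the 8, at 884 against 468. Its ratio was 1.52 (1.36 to 1.71), and it was called neither. Gata4 had the most non-LRO reads, at 1041 against 240 LRO reads, so these genes weigh heavily in the sums. Both higher genes had under 50 reads over the 2 libraries. All 8 visceral endoderm genes were lower, at 15.8 against 261 RPM, with Afp and Amn at 0 reads in the LRO library. Of 5 measured floor plate genes Spon1, a secreted matrix protein, was 7.16-fold higher (6.33 to 8.12) and Nkx6-1 4.84-fold higher (2.27 to 11.8), while Nkx2-2 had 0 reads against 8. The guidance gene Ntn1 and the homeobox gene Nkx2-9 were called neither, at ratios of 0.990 and 0.996. The 5 summed to 107 RPM in the LRO library against 34.7 in the non-LRO library, of which Spon1 alone gave 83.6 and 11.7 RPM. The part of either tissue in the Foxa values was not tested.

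Nearly all Foxa2 reads were assigned to 1 of its 3 transcripts. NM_001291065, whose start lies 1021 bases downstream of the most upstream start, had 378 reads in the LRO library against 25.2 in the non-LRO library. That was 95.7% and 97.0% of the reads of the gene. The transcript of the most upstream start, NM_010446, had 16.7 and 0.433 reads and was also called higher, and the third, NM_001291067, had under 1 read in each library. The same transcript thus held most of the estimated Foxa2 reads in both pools. The authors' software split shared reads among the 3 transcripts, and the non-LRO library had few reads of the gene.

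Sox9 showed the highest ratio of the 9. It encodes an HMG-box factor of notochord, cartilage and neural crest, and lies on chromosome 11 (112782224 to 112787760). It had 2848 reads in the LRO library against 121 in the non-LRO library, or 22.7 and 1.20 RPKM. The ratio was 19.0 (15.8 to 23.0). By RPKM it ranked 4 among the 78 family genes in the LRO library against 36 in the non-LRO library. Its ratio and that of Foxa2 did not differ beyond counting error, with a ratio of ratios of 1.55 (0.960 to 2.42).

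Sox5 and Sox6 encode paired HMG-box factors of another Sox group, which work with Sox9 on matrix genes in cartilage. Sox5, on chromosome 6 (143828425 to 144781977), had 370 reads in the LRO library against 78 in the non-LRO library. The levels were 1.67 and 0.440 RPKM and the ratio was 3.82 (2.99 to 4.95). Sox6, on chromosome 7 (115470872 to 116038796), had 304 and 259 reads, or 1.17 and 1.23 RPKM, a ratio of 0.946 (0.799 to 1.12). With TMM factors the Sox6 ratio was 1.20 (1.02 to 1.43), so its direction depended on the scaling, and under neither scaling was it called. The ratio of Sox5 was 4.04 times that of Sox6 (2.98 to 5.50), and that of Sox9 was 4.96 times that of Sox5 (3.61 to 6.79).

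The make-up of the trio thus differed between the pools. In the LRO library Sox9 stood at 13.6 times the RPKM of Sox5 and 19.4 times that of Sox6. In the non-LRO library Sox9 was at 2.72 times Sox5 and 0.971 times Sox6. Sox5 itself was above Sox6 in the LRO library, at 1.43 times its RPKM, and below it in the non-LRO library, at 0.357 times. Reads were not tied to strand, and 9.25% of the exon bases of Sox5 in the GENCODE M21 annotation overlap the antisense gene Sox5os1. This share is over all annotated Sox5 exons and was not computed for those of the measured transcripts. The part of antisense reads in the Sox5 value was not tested. The other 8 regulators shared no exon bases with another gene.

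**Figure D2:**
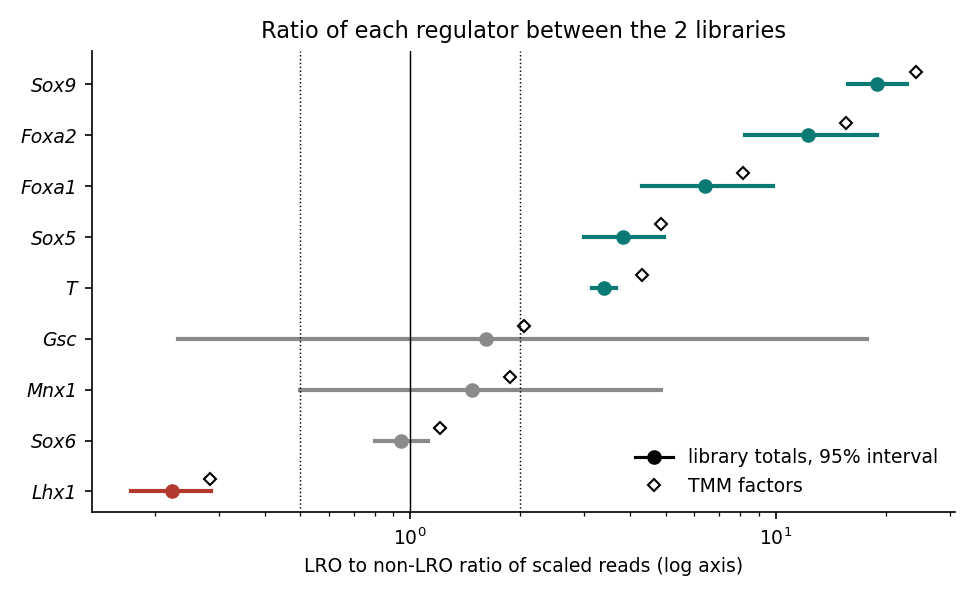
LRO to non-LRO ratio of each regulator (log axis) with its 95% counting interval after scaling to library totals (filled circles and lines), and the ratio with TMM factors (open diamonds). Dotted lines mark ratios of 0.5 and 2. The intervals of 5 genes lie wholly above 2, that of Lhx1 lies wholly below 0.5, and those of Gsc (0.231 to 17.8) and Mnx1 (0.501 to 4.87) are wide.

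Genes of matrix proteins on which the trio acts in cartilage were read out beside it. Of 11 measured, 4 were higher, 2 lower and 5 neither, with a median log2 ratio of 0.15 beside -0.42 for all genes. Counting only genes with at least 50 reads over both libraries, 2 were higher and 1 lower. Their summed level was 253 RPM in the LRO library against 67.6 in the non-LRO library. Col2a1, the main collagen of cartilage and of the notochord sheath, had 1918 against 324 reads and a ratio of 4.77 (4.24 to 5.38). Hapln1, which links hyaluronan to proteoglycan, had 5386 against 1012 reads and a ratio of 4.29 (4.01 to 4.59). The cartilage proteoglycan gene Acan had 43 against 6 reads, and Comp, a cartilage matrix gene, had 36 against 0. Hapln1 and Col2a1 gave most of the reads of the list. Col9a1 and Matn3 were lower, with 57 against 135 and 3 against 30 reads, and Col9a1 was not called with TMM factors. Matn4 had 0 LRO reads and 1 non-LRO read.

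Neural crest cells also express Sox9, and 6 of the 12 crest markers were called higher with it. Sox10, the closest neural crest relative of Sox9, had 733 against 7 reads and a ratio of 84.4 (40.8 to 211), which was 4.45 times the ratio of Sox9 (2.08 to 11.3). Foxd3, a forkhead factor of the early crest, had 167 against 4 reads, and Tfap2b had 379 against 11. Tfap2a and Erbb3 were also higher, at ratios of 4.09 and 3.98. Snai2, Pax3, Ets1, Twist1, Zic1 and Sox8 were called neither, Snai2 with a ratio of 0.731, and Twist1 was higher with TMM factors. Sox8, the third gene of the group of Sox9 and Sox10, had 27 against 14 reads and a ratio of 1.55 (0.787 to 3.21). Their part in the level of Sox9 was not tested.

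Sox5 had 1 main transcript and Sox6 had several. Of the Sox5 reads 94.1% in the LRO library against 76.0% in the non-LRO library were assigned to NM_011444, at 348 and 59.3 reads, a ratio of 4.75 (3.60 to 6.38). NM_001243163 had 15.5 and 17.8 reads. The 3 Sox5 transcripts share the same outer ends.

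The 6 Sox6 transcripts start at different points, and 2 of them were lower while the gene sum was called neither. NM_001025559, from the most upstream start shown above, had 25.4 reads in the LRO library against 85.2 in the non-LRO library. It was 4.22-fold lower (2.67 to 6.88) and held 8.35% of the LRO reads of the gene and 32.9% of the non-LRO reads. NM_011445, whose start lies 43658 bases further in, had 13.5 and 59.5 reads and was 5.23-fold lower (2.88 to 10.1). These 2 calls held with TMM factors. NM_001025560, whose start lies 7697 bases inside the first, had 165.8 and 73.3 reads, a ratio of 1.83 (1.38 to 2.45) that was not called. Its share was 54.6% in the LRO library against 28.3% in the non-LRO library. NM_001277328, the most internal start, had 70.5 and 19.6 reads and a ratio of 2.82 (1.70 to 4.90), which was called higher with TMM factors and not otherwise. In all, 0 of the 6 were higher and 2 were lower, beside 5.11% of all transcripts called higher and 13.9% lower. The transcripts are 8411 to 8706 bases long, and the authors' software split shared reads among them, so these values are estimates.

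**Figure D3:**
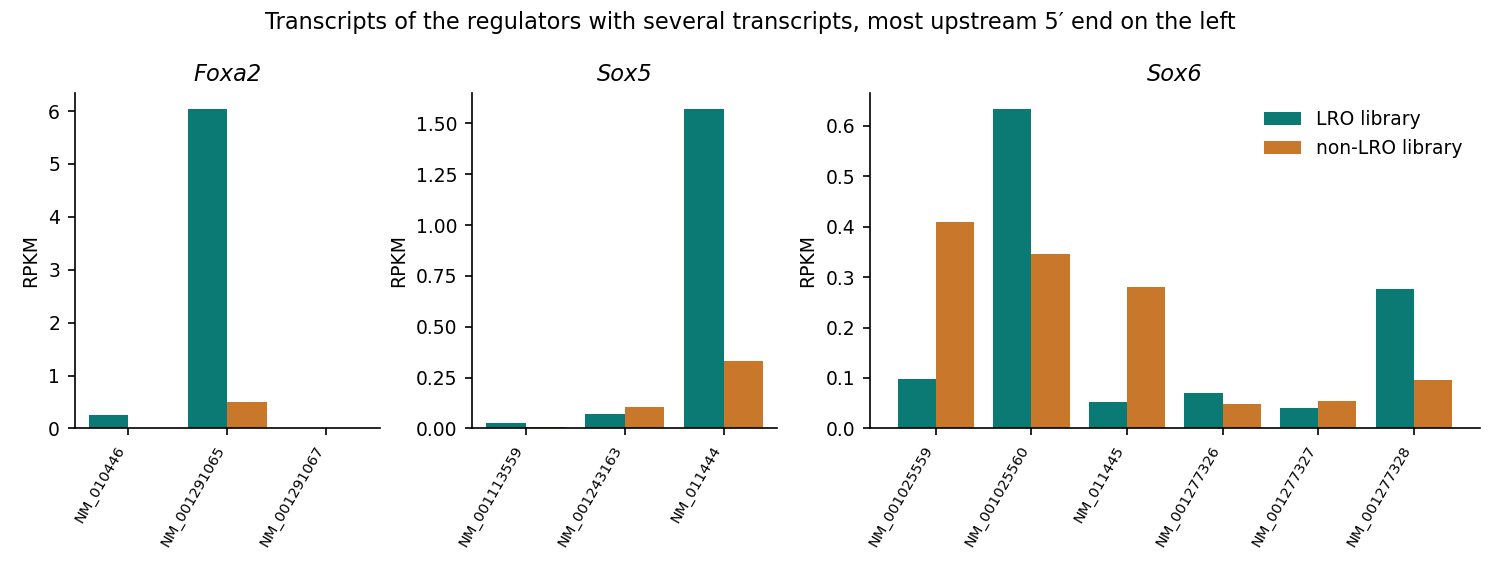
RPKM of each transcript of Foxa2, Sox5 and Sox6 in the LRO library (left bar) and the non-LRO library (right bar), ordered by 5′ end from upstream to downstream. By estimated reads Foxa2 and Sox5 each had 1 main transcript, whereas for Sox6 NM_001025559 and NM_011445 were lower and NM_001025560 was the most abundant in the LRO library.

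Lhx1, a LIM homeobox factor of the head organizer that is also made in lateral and intermediate mesoderm and in visceral endoderm, was the 1 regulator that was lower. It lies on chromosome 11 (84518284 to 84525535). It had 81 reads in the LRO library against 293 in the non-LRO library, or 0.973 and 4.37 RPKM, and was 4.49-fold lower (3.50 to 5.81). T stood at 57.1 times the RPKM of Lhx1 in the LRO library against at 3.76 times in the non-LRO library. The ratio of Sox6, its nearest neighbour in the order, was 4.24 times that of Lhx1 (3.13 to 5.79).

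Of the other anterior genes Cer1 alone was called lower. Of 7 genes of the prechordal plate and anterior mesendoderm 0 were higher and 1 was lower, at 27.2 against 51.8 RPM. Cer1, a secreted antagonist of Nodal and BMP signals, had 99 against 475 reads and was 5.95-fold lower (4.78 to 7.47). Otx2, a head homeobox gene, had 84 and 89 reads, Dkk1, a Wnt antagonist, had 172 and 169, and Hhex had 49 and 105 with a ratio of 0.376 (0.262 to 0.533). Frzb, another Wnt antagonist, had 386 and 414 reads. Six3, a head homeobox gene, lay on the other side of 1, with 32 against 9 reads and a ratio of 2.87 (1.34 to 6.83), and was called neither. Hesx1 had 0 reads in the LRO library against 3 in the non-LRO library. Of 5 measured intermediate mesoderm genes Pax2 was higher, at 249 against 62 reads, and 0 were lower, at a sum of 29.96 RPM in the LRO library against 27.0 in the non-LRO library, with Emx2 at 0 reads in the LRO library. The visceral endoderm genes given above were lower together with Lhx1, and their part in its value was not tested.

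Genes of proteins that act with LIM homeobox factors were called neither. Among 6 such genes Ldb1, the main cofactor, had 1496 reads in the LRO library against 1607 in the non-LRO library, a ratio of 0.750 (0.699 to 0.806). Ssbp3, which stabilizes the Ldb1 complex, had 2139 and 2086 reads. Ldb2 had the lowest ratio of the 6, at 0.456 (0.366 to 0.567).

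Gsc and Mnx1 were close to the limit of detection in both pools. Gsc, a homeobox gene of the anterior streak and prechordal plate on chromosome 12 (104471209 to 104473330), had 4 reads in the LRO library against 2 in the non-LRO library, or 0.113 and 0.0698 RPKM. Its ratio of 1.61 had an interval from 0.231 to 17.8, which includes 0.5, 1 and 2, so its direction was not known. The ratio of Sox9 was 11.7 times that of Gsc (1.05 to 82.8). That of Gsc was 7.18 times that of Lhx1 (1.01 to 80.7), and both margins were small. Mnx1, a homeobox gene of notochord, motor neurons and pancreas on chromosome 5 (29473034 to 29478470), had 11 and 6 reads, or 0.2495 and 0.169 RPKM, with a ratio of 1.48 (0.501 to 4.87). Its ratio was nevertheless below those of the most enriched regulators, since that of Foxa2 was 8.20 times that of Mnx1 (2.30 to 26.6) and that of Sox9 12.8 times (3.82 to 38.5). The ratio of Mnx1 to that of T was 0.436 (0.147 to 1.44), which counting error cannot tell from 1.

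In the order of ratios Sox9 and Foxa2 came first and were not separated. Foxa2 lay above Foxa1, and Foxa1 above Sox5 by 1.67 times (1.03 to 2.76). Sox5 and T were not separated, at 1.13 times (0.871 to 1.48). T, Gsc, Mnx1 and Sox6 followed with no neighbouring pair separated beyond counting error, and Lhx1 came last and apart from Sox6. Gsc and Mnx1 had few reads, and the intervals of T (3.14 to 3.66) and Sox6 (0.799 to 1.12) did not overlap. By level in the LRO library the order in RPKM was T, Sox9, Foxa2, Foxa1, Sox5, Sox6, Lhx1, Mnx1 and Gsc.

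Within their own families the higher regulators stood beside genes that went the other way. Of 13 measured T-box genes T and Tbx1 were higher, 9 were lower and 2 were neither. Tbx1, a regulator of pharyngeal mesoderm, had 411 against 20 reads. Tbx4, a T-box gene of the allantois and hindlimb, had 17 against 1984 reads and was 145-fold lower (90.2 to 249). Tbx3 and Tbx20 were 3.61-fold and 3.88-fold lower, and Tbx18 had 8 against 56 reads. With TMM factors 6 were lower.

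Among 37 measured Fox genes 9 were higher, 2 lower and 26 neither, with a median log2 ratio of 0.67, and with TMM factors 14 were higher. Foxj1, Foxd3 and Foxa2 had the highest lower bounds, and Foxf2, at 11 against 98 reads, and Foxq1, at 0 against 21, were the lower ones. Foxp4 was the most abundant Fox gene of the LRO library at 25.7 RPKM, above the 6.29 RPKM of Foxa2. Of 18 measured Sox genes Sox10, Sox9, Sox5 and Sox11 were higher, and Sox7, Sox17, Sox18 and Sox15 were lower. Sox7, Sox17 and Sox18 form the group of endothelium and endoderm and were 4.25-fold, 5.79-fold and 4.09-fold lower. Sox13, the third gene of the group of Sox5 and Sox6, had 876 against 776 reads and was called neither. Of 10 measured LIM homeobox genes Lmx1a and Lhx2 were higher and Lhx1 alone was lower. Lhx5, the closest relative of Lhx1, had 23 against 6 reads and was called neither.

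**Figure D4:**
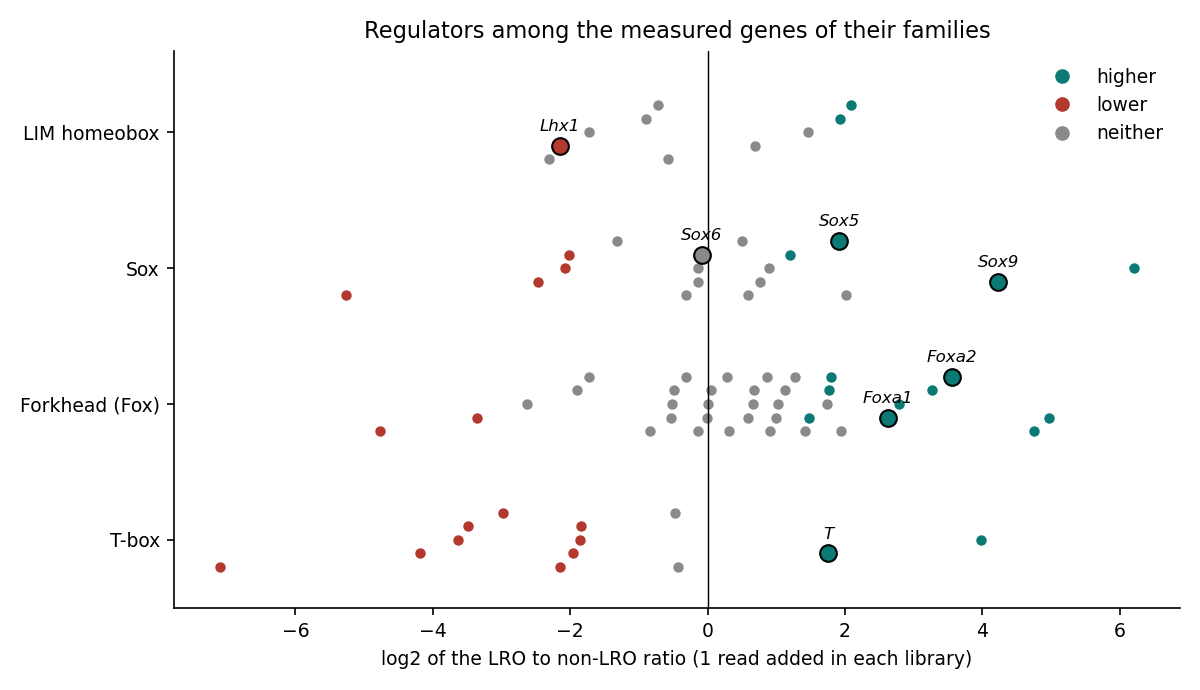
Log2 of the LRO to non-LRO ratio, with 1 read added in each library, for the 78 measured genes of 4 transcription factor families, coloured by call, with the regulators outlined and named (Mnx1 and Gsc belong to none of the 4). T lies to the right of all T-box genes but Tbx1, Sox9 to the right of all Sox genes but Sox10, and Lhx1 is the 1 LIM homeobox gene called lower.

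By nearness of log2 ratio over the 2 libraries, among the 57 family genes with at least 50 reads in all, T was nearest to Foxp2, Foxi3 and Foxd4, with differences of 0.01, 0.02 and 0.03. Sox9 was nearest to Tbx1, Foxd3 and Foxa2, with differences of 0.25, 0.52 and 0.67. Lhx1 was nearest to Tbx6, Sox7 and Sox18, with differences of 0.00035, 0.07 and 0.13. These are values from 1 pair of libraries.

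The lists given beside the regulators differed widely. Node and notochord genes had a median log2 ratio of 3.75, neural crest genes 1.61 and heart genes 1.23. Streak and neuromesodermal genes had -1.23 and visceral endoderm genes -4.96. Of 8 somite and sclerotome genes 0 were higher and 2 lower, Pax1 with 1 against 17 reads and Meox2 with 0 against 22, both under 50 reads in all. Meox1, with 1730 against 703 reads, and Foxc2, with 550 against 218, were called neither, and higher with TMM factors. The summed level of the 8 was 80.9 RPM (LRO) and 43.5 RPM (non-LRO), with Nkx3-2 and Meox2 at 0 LRO reads.

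**Figure D5:**
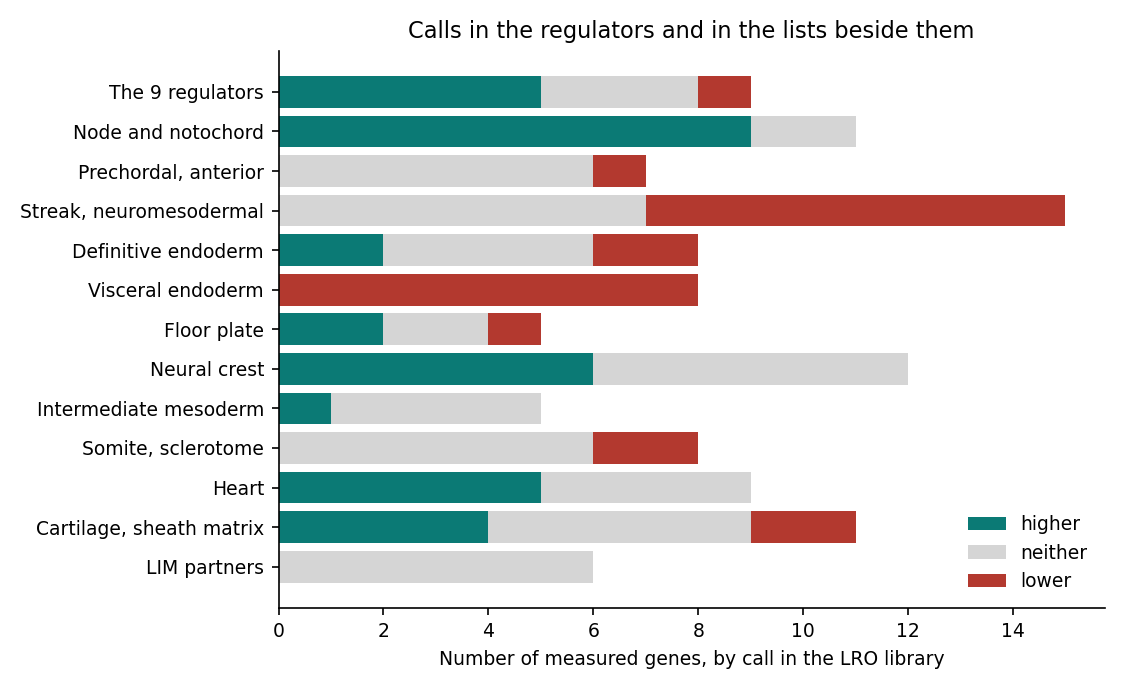
Number of measured genes called higher, neither or lower in the LRO library, for the 9 regulators and for 12 lists of related genes and of other cell types. Node and notochord (9 of 11), neural crest (6 of 12) and heart (5 of 9) genes include several called higher, and all 8 visceral endoderm genes were lower.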

How the data were processed

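RNA from 2 pools of sorted cells was amplified into double-stranded cDNA with a kit that does not keep strand. The authors aligned reads with TopHat and quantified RefSeq transcripts with Partek Genomics Suite 6.6. The deposited estimated counts are reads per transcript, with shared reads split, and the deposited RPKM values are those reads scaled by the authors to transcript length and library total. The deposited table also gives the length of each transcript in bases. Columns of the authors' own comparison (chi-square statistics and p-values) and 4 further columns of values per library were not used. The labels name mm10, yet transcripts on chromosome 1 end as late as 197002910, beyond the last end of 195323493 in GENCODE M21 (GRCm38), so positions given here are from GRCm38 annotation alone.

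Reads were summed per symbol and rounded. Library totals were recovered from reads, length and RPKM. Transcripts held 16672852 (LRO) and 13418798 (non-LRO) assigned reads. Ratios, exact conditional intervals (ratio and ratio of 2 ratios) and calls were computed with Python 3.11.15 and SciPy 1.17.1, and TMM factors with edgeR 4.0.16. The calls were tested on simulated reads that held counting error alone. Amplification noise and spread between pools were not simulated, so the calls were not tested against these. Log2 ratios of lists had a pseudocount of 1 read. The members, lists and rules were chosen with earlier results of these data known. Named were the 9 members, up to 4 leading genes of each list in each direction, the nearest genes and the closest paralogs. Other genes named, with counts or as called neither, were chosen after their values were seen. Alternatives were other scalings, fold bounds, intervals, read minimums, thinning, reads divided by 10, RPKM with pseudocounts, and single transcripts. A gene counted among the neural crest markers is not reported here by name.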

Additional observations from a re-analysis of the deposited data

How the results depend on the processing

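Of 123 recomputed ratios of the 9 regulators under the alternatives, 112 kept their direction and their call, 6 lost the call and 5 changed direction. No call turned into its opposite. The number called higher was 3 when the bound was set at 4 and 3 when reads were divided by 10, against 5, and the number called lower was 0 with a fold bound of 4, against 1. The bound of 4 acts by construction and ended the calls of T, Sox5 and Lhx1. Division by 10, which mimics fewer molecules behind the reads, ended those of Foxa1 and Sox5. With RPKM and a pseudocount of 1 Sox5 had a ratio of 1.85 and was not called. The Sox6 ratio was 1.20 with TMM factors, 1.17 with the median ratio, 1.01 without Rn45s and Lars2, and 1.83 with its main transcript alone, and that of Mnx1 was 0.806 with reads divided by 10. Neither was called under any of these. Of 64 recomputed counts over the lists 52 stayed within 1.5 times and 12 moved. The low reads of Gsc (4 and 2) and Mnx1 (11 and 6) limit what can be said of them, and without a second library per group no spread between samples is known. No paired analysis was possible because neither group had a second library.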
